A study of Mus musculus with 5 samples.

Results

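The genes described here are 8 cytokines and receptors of type 2 immunity, namely Tslp, Il33, Il1rl1, Il4, Il5, Il13, Il4ra and Il13ra1. They were taken by symbol from the 32285 genes listed in the deposited count matrices, and each symbol matched 1 gene. Mammary glands of mice were profiled by droplet single-cell RNA sequencing (10x Genomics 3′ kit, version 3), in 5 libraries. Of these, 3 libraries are labelled Frmd3 knockout (KO1, KO2 and KO3) and 2 wild type (WT1 and WT2). The labels used here give no allele, strain, age, treatment or reproductive state. The libraries hold 32472 barcodes, of which 28588 passed the filter (500 genes or more, and mitochondrial UMIs at 15% or less). A UMI (unique molecular identifier) marks 1 captured transcript. After removal of 1754 doublets, 26834 cells were used, with 2218 to 9450 per library.

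Type 2 immunity starts at barriers and in connective tissue, where the alarmins IL-33 and TSLP are released. IL-33 binds ST2, the product of Il1rl1, on mast cells, group 2 innate lymphoid cells and regulatory T cells. Among them, mast cells, group 2 innate lymphoid cells and T helper 2 cells make IL-5, which sustains eosinophils, and IL-4 and IL-13. IL-4 binds IL-4Rα (Il4ra) with the common γ chain (Il2rg) on leukocytes, whereas IL-4Rα with IL-13Rα1 (Il13ra1) binds both IL-4 and IL-13 on other cells.

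On the mm10 build, Il4 (11:53602982-53618669, minus strand), Il13 (11:53631324-53634702, minus strand) and Il5 (11:53720794-53725106, plus strand) are neighbours. The gap between Il4 and Il13 is 12654 bases and that between Il13 and Il5 is 86091 bases. The other members lie elsewhere, with Il1rl1 at 1:40429570-40465415, Il33 at 19:29925114-29960718, Il4ra at 7:125552120-125579474 and Il13ra1 at X:36112110-36171259, all on the plus strand. The 3′ reads sum every transcript of a gene, so the soluble and membrane forms of ST2 were not separated.

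Il1rl1, Il5 and Il13 were high in the same small lymphoid cluster, in which nearly every cell had UMIs of the transcription factor Gata3, so their promoters are shown with GATA words in capitals. The words searched were AGATAA or AGATAG or TGATAA or TGATAG on both strands, in the 250 bases before each RefSeq transcript start (GRCm38.p6). A second search, also on both strands, was for a STAT6-type word, which is TTC and GAA with any 4 bases between. Il1rl1 has a pair of starts, of which the upstream one is at the first base of the gene and the downstream one lies inside it. The windows are chr1:40429320-40429569 (+) and chr1:40439379-40439628 (+) for Il1rl1, chr11:53720544-53720793 (+) for Il5 and chr11:53634703-53634952 (−) for Il13, each written 5′ to 3′ along its gene.
Il1rl1, upstream start: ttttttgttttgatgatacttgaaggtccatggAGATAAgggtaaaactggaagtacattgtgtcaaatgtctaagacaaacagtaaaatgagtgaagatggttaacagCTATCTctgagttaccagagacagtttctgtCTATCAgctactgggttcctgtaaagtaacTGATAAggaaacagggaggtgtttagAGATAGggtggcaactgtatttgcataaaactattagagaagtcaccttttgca
Il1rl1, downstream start: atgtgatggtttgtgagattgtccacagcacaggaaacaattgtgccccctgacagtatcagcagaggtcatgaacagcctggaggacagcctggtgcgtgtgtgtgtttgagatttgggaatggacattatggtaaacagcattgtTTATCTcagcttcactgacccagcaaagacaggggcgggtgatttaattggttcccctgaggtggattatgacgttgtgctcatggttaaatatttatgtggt
Il5: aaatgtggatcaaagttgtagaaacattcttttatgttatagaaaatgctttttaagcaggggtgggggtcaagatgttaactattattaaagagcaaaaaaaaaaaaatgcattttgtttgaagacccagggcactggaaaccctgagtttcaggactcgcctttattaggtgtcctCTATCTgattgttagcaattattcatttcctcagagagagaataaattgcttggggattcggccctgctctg
Il13: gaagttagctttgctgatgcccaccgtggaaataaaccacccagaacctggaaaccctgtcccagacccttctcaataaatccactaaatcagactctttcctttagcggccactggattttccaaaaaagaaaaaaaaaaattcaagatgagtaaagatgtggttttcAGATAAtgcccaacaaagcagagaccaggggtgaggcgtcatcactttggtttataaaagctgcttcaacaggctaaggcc
The window of the upstream Il1rl1 start holds 5 GATA words, beginning 217, 141, 110, 80 and 54 bases before the start. At least 5 were present in 14 of the 32851 windows of this length in the RefSeq table, or 0.0426%. The windows of the downstream Il1rl1 start, of Il5 and of Il13 hold 1 GATA word each, 103, 72 and 81 bases before the start, and at least 1 was present in 26.5% of all windows. None of these 4 windows holds a STAT6-type word, which 5.85% of all windows do. No window of Tslp was searched. Among the 10 windows of the other 7 members, 2 hold the STAT6-type word, 1 each of Il33 and Il4. A GATA word is in 5 of the 10, the other being a window of Il4. Such a match is a description of the letters and not evidence of binding.

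Cells were clustered without the 8 genes and without Frmd3, and clusters were called "X-like" from marker genes. Luminal, basal, fibroblast, endothelial, macrophage, T cell and NK cell classes were found in each library, and the B cell-like class in all but KO3. The clusters without a name held 40.3% of KO1, but 3.42%, 9.60%, 9.60% and 3.92% of the libraries KO2, KO3, WT1 and WT2. Most of those of KO1 were a cluster of 3499 cells, 37.03% of that library. In it Epcam (epithelium) had a UMI in 77.0% of cells, Col1a1 (fibroblasts) in 99.1% and C1qa (macrophages) in 79.3%. Median depth ran from 4412.5 UMIs per cell in KO1 to 12601 in KO2. Frmd3 itself was at 2.03, 3.29, 1.68, 1.42 and 2.53 CPM (counts-per-million, the UMIs of a gene scaled to a common total) in KO1, KO2, KO3, WT1 and WT2, and lists of 5 values below keep that order. The knockout-labelled and wild type libraries overlapped. The labels do not name the deleted part and the kit reads the 3′ end, so this level does not check the label.

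Over all cells used, most UMIs of the alarmins were in fibroblast-like cells and the cytokines were held by few cells. Il33 had 20000 UMIs in 4959 cells and Tslp 1704 UMIs in 1350 cells. Il5 had 2559 UMIs in 293 cells, Il13 387 UMIs in 98 cells and Il4 42 UMIs in 26 cells. The receptors Il4ra and Il13ra1 were spread over 10420 and 8180 cells, and Il1rl1 over 2325 cells. Levels per class are CPM of the gene within that class in 1 library, averaged over libraries with at least 20 cells of the class. For mast cell-like and group 2 innate lymphoid-like cells, which are scarce, at least 5 cells were asked. Since clusters were made from these cells, class levels are a description without a test.

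**Figure D1:**
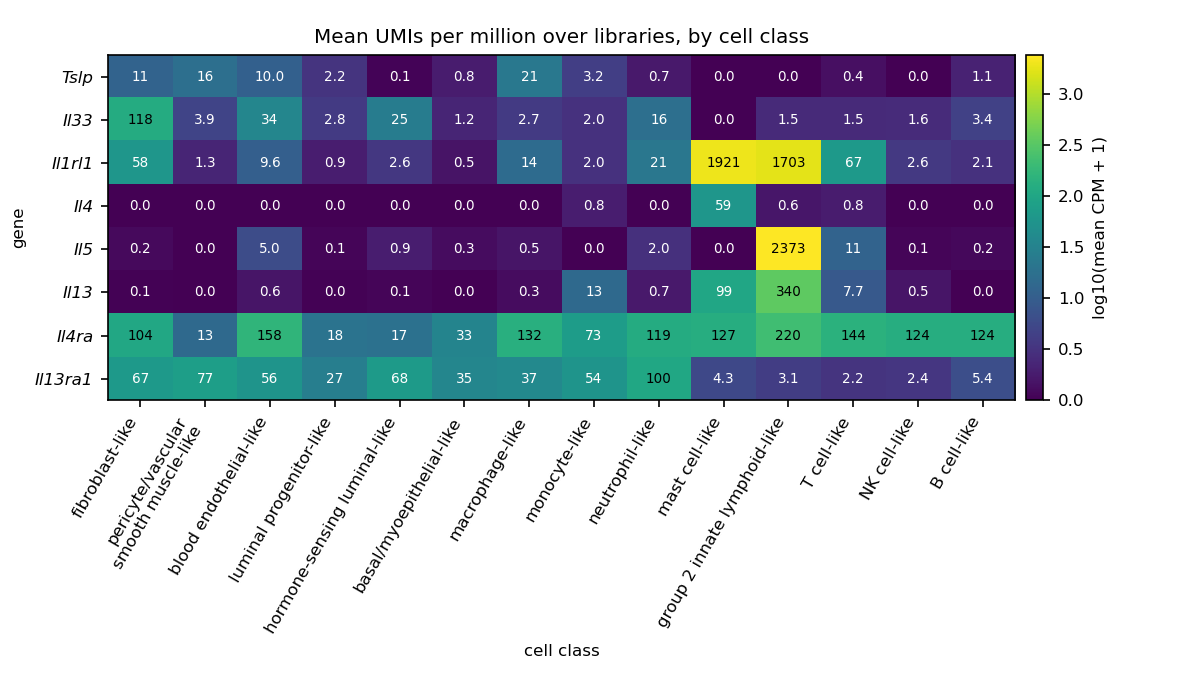
Mean CPM of the 8 genes (rows) in 14 cell classes (columns), averaged over libraries; the colour is log10(mean CPM + 1) and the printed number the mean. Il5 is at most 10.9 outside group 2 innate lymphoid-like cells, Il1rl1 is highest there and in mast cell-like cells, and Il33 is highest in fibroblast-like cells.

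Tslp, which encodes an epithelial and stromal alarmin, was low everywhere, and most of its UMIs were in fibroblast-like cells, the largest class. Fibroblast-like cells held 77.8% of its UMIs in named classes and macrophage-like cells 11.95%. Its level in macrophage-like cells was 15.4, 14.8, 48.2, 9.63 and 17.9 CPM. KO3 was the highest of these, and the other 4 lay between 9.63 and 17.9. In fibroblast-like cells it was 11.1, 11.005, 14.1, 11.97 and 6.06 CPM, so that WT2 was the lowest. Pericyte/vascular smooth muscle-like cells had 9.63, 2.17, 7.64, 40.6 and 19.2 CPM, from 38 UMIs in all. The ranges of these 3 classes overlapped. Among macrophage-like cells the UMIs lay in the cluster led by Mrc1, Pf4 and C1qa, at 24.6 ± 15.7 CPM (SD, n = 5). The cluster led by Mmp12 and Ctss had no UMI in either of the libraries with at least 20 of its cells. Luminal progenitor-like cells had 2.18 ± 0.47 CPM (SD, n = 5) and hormone-sensing luminal-like cells at most 0.197 CPM in any library. In NK cell-like and group 2 innate lymphoid-like cells no Tslp UMI was found; for the latter a count of 0 allows up to 3.49 CPM over the 153 cells.

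Il33, the other alarmin and a nuclear cytokine of stromal and epithelial cells, was a fibroblast gene first and a hormone-sensing luminal gene second. Fibroblast-like cells held 86.2% of its UMIs in named classes, at 136 (KO1), 147 (KO2), 40.4 (KO3), 103 (WT1) and 165 (WT2) CPM. KO3 was the lowest, and the wild type values lay within the range of the knockout-labelled ones or just above it. Hormone-sensing luminal-like cells held 12.4%, at 2.95, 61.1, 16.1, 12.2 and 32.7 CPM. The highest levels there were those of KO2 and WT2, one of each genotype. Luminal progenitor-like cells had 2.20, 2.51, 3.93, 0.502 and 4.73 CPM, and basal/myoepithelial-like cells at most 3.37 CPM. A UMI of Il33 was found in 39.4% of fibroblast-like cells (median depth 13216 UMIs) and in 0.750% of T cell-like cells (median depth 5363), which should lack it. After each cell was thinned to 2000 UMIs these shares were 15.5% and 0.299%. Endothelial-like cells ranged from 0 in WT1 and WT2 to 146 CPM in KO1, but 66 of their 79 UMIs were in 5 cells.

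The fibroblast level hid a sharp division between the larger clusters that was seen in every library. The cluster led by Apod, Sfrp5 and Thbs4 had the highest Il33, at 356 (KO1), 1023 (KO2), 312 (WT1) and 707 (WT2) CPM. Next was the cluster led by Gdf10, C2 and Clec11a, at 281, 277, 158, 281 and 242 CPM. The cluster led by Mrgprg and Smpd3 had 147 ± 59.8 CPM (SD, n = 5) and that led by Sfrp2, Cxcl13 and Pi16 had 102 ± 37.8 CPM (SD, n = 5). Pi16, with Dpp4, marks the universal fibroblasts of the outer connective tissue. By contrast, the cluster led by Scg3, Adam12 and Cxcl9 had 4.67, 3.35, 5.04, 1.28 and 7.29 CPM. The cluster led by Enpp2 and Mme had 4.05 ± 3.23 CPM (SD, n = 4). The highest library of either low cluster, 8.67 CPM, lay below the lowest library of the clusters led by Gdf10, Mrgprg and Pi16, 63.1 CPM.

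The low clusters led by Scg3 and by Enpp2 together made up 44.6%, 2.99%, 59.9%, 50.03% and 6.72% of the fibroblast-like cells. KO3 had the largest share of them and the lowest Il33 level of the class, and KO2 and WT2 had the smallest shares and the highest levels. Hormone-sensing luminal-like cells differed by library in the same way. The cluster led by Fgb and Upk3a made up 72.7% of them in KO2 and 75.4% in WT2 and at most 9.70% in the others. The cluster led by Aoc1 and Dmbt1 made up 77.1% in KO1 and 81.2% in WT1. Il33 was at 62.6 and 36.5 CPM in the Fgb cluster of KO2 and WT2, and at 2.01 and 11.4 CPM in the Aoc1 cluster of KO1 and WT1. The part of these mixtures in the class levels was not tested.

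Il1rl1, the receptor for IL-33, was detected in nearly every mast cell-like and group 2 innate lymphoid-like cell. Group 2 innate lymphoid-like cells had 1830, 1742, 1323, 1812 and 1809 CPM, with a UMI in 145 of 153 cells. Mast cell-like cells had 2193, 1783, 1776, 1746 and 2109 CPM, with a UMI in 69 of 73 cells. The 2 ranges overlapped, and each lay above every other class in every library. Luminal progenitor-like cells, at 0.88 CPM or less in KO1, KO2, KO3 and WT1 and at 1.93 CPM in WT2, give the background. Among T cell-like cells, 234 of 278 UMIs were in the cluster led by Icos, Tnfrsf4 and Ctla4, genes of activated and regulatory T cells, and 36 in a cluster led by histone genes and Mki67. The Icos cluster had 160 CPM in KO1, 427 in KO3, 181 in WT1 and 145 in WT2. The clusters led by Lef1 and Ccr7 and by Ccl5 and Trbc2 had 0.340 ± 0.589 (SD, n = 3) and 1.38 ± 2.77 CPM (SD, n = 4).

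Although the level per cell was lower, fibroblast-like cells held 67.5% of Il1rl1 UMIs in named classes. Their level was 32.4, 60.5, 116, 20.6 and 61.1 CPM, with KO3 the highest and WT1 the lowest. The clusters again differed, in another order from that of Il33. The Scg3 and Adam12 cluster, which was low in Il33, had 56.4, 231, 238, 36.0 and 114 CPM. The Krtdap and Ccn3 cluster had 160 (KO1), 141 (KO2) and 93.7 (WT2) CPM, and there Il33 was high as well, at 344, 124 and 164 CPM. The Gdf10 cluster, high in Il33, had 4.54, 5.15, 0, 1.88 and 14.1 CPM of Il1rl1. The Apod cluster, with the highest Il33, had 7.99 ± 6.39 CPM (SD, n = 4). In KO1, KO2, KO3, WT1 and WT2 alike, Il1rl1 was lower in the Gdf10 cluster than in the Scg3 cluster, and Il33 was higher.

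**Figure D2:**
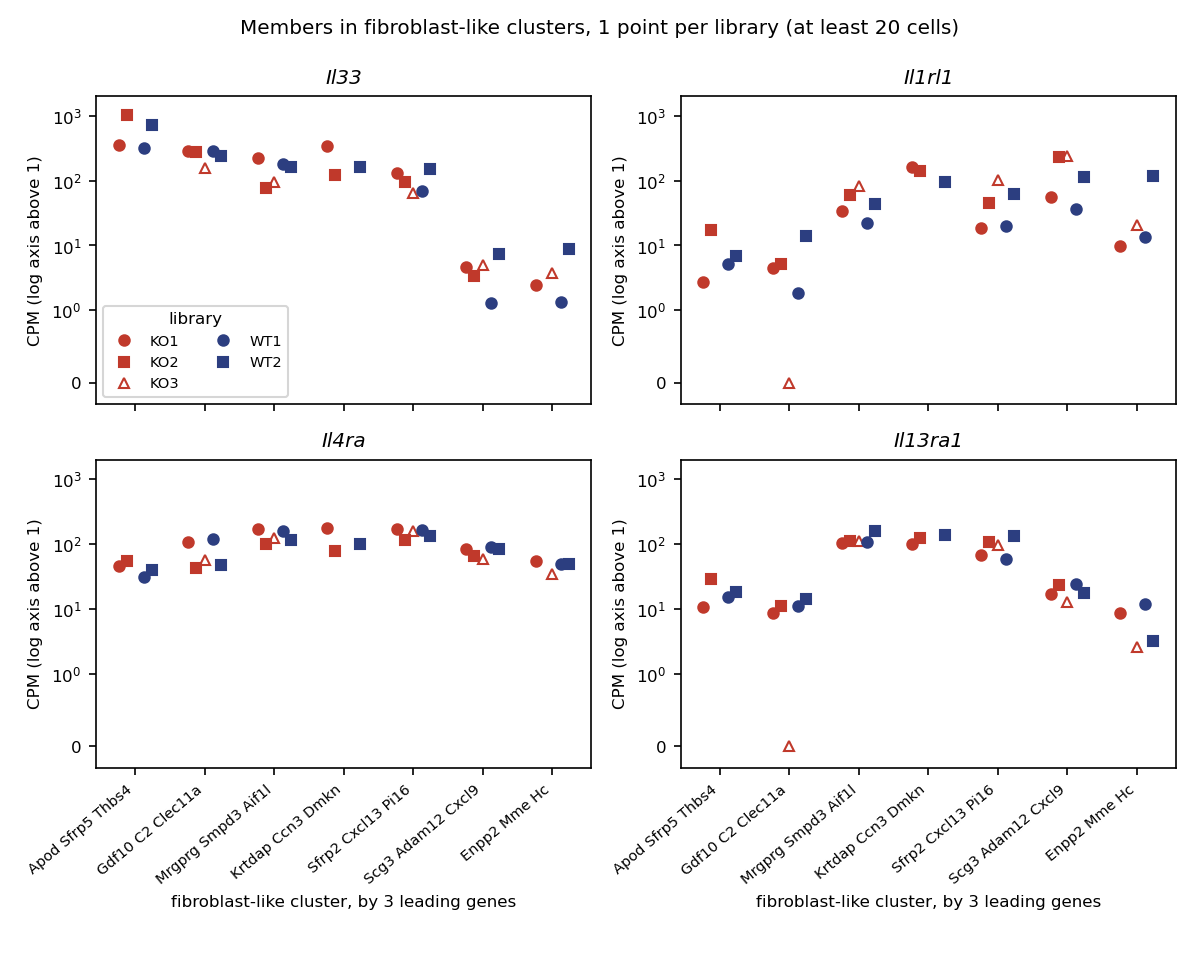
CPM (log axis above 1) of Il33, Il1rl1, Il4ra and Il13ra1 in 7 fibroblast-like clusters named by leading genes; each point is 1 library with at least 20 cells, red for knockout-labelled and blue for wild type. Il33 falls from over 60 to under 10 between the first 5 and the last 2 clusters, while Il1rl1 and Il13ra1 are low in the Apod and Gdf10 clusters.

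The cluster called group 2 innate lymphoid-like had 153 cells, with 38, 13, 17, 29 and 56 per library. Gata3 and Rora, transcription factors of these cells, had UMIs in 94.8% and 95.4% of them, Il2ra in 86.9%, Il7r in 81.0% and Arg1 in 56.9%. Other markers used for the name were Cxcr6 in 76.5%, Ptpn13 in 56.9%, Icos in 54.2%, Hs3st1 in 35.9%, Calca in 26.8% and Ccl1 in 22.9%. Icos was in 50.2% of T cell-like cells too, and the marker Il17rb was in only 3.27% of the cluster. Of T cell genes, Cd3g had UMIs in 32.7%, Trac in 27.5% and Trbc2 in 68.6%, whereas Cd8a and the NK gene Ncr1 had none. Some T cells may therefore be in the cluster; their part in the values below was not tested. The cells made up 0.402%, 0.293%, 0.766%, 0.600% and 0.95% of the cells used. The mean was 0.487 ± 0.248% (SD, n = 3) in knockout-labelled libraries and 0.775 ± 0.247% (SD, n = 2) in wild type, and the ranges overlapped. The difference of −0.288 percentage points had a p of 0.3 (two-sided exact permutation test, where 3 libraries against 2 allow no p below 0.1). Over cells of named classes alone the shares were 0.673%, 0.303%, 0.848%, 0.664% and 0.989%, and the difference −0.218 points (exact p = 0.5). With the stricter cell filter they were 0.409%, 0.313% and 0.487% against 0.626% and 0.928%, so the ranges no longer overlapped (exact p = 0.1).

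Il5, the eosinophil growth factor, was the member most restricted to 1 class. Group 2 innate lymphoid-like cells held 93.6% of its UMIs in named classes. They had 456, 369, 36, 223 and 1200 UMIs, or 2061, 4202, 644, 1454 and 3506 CPM. KO2 and WT2 were the highest and KO3 the lowest, so the genotypes overlapped. A UMI was found in 114 of the 153 cells, or 74.5%, and in 0.163% of NK cell-like cells, at median depths of 5480 and 5016 UMIs. Outside this cluster, the 71 cells of other named classes with Il5 held 156 UMIs, of which 66 cells held 1 UMI each. Of the other 5, 2 cells held 4 UMIs together. The remaining 3 were 1 hormone-sensing luminal-like cell of WT1 with 47 UMIs, 1 T cell-like cell of KO2 with 30 and 1 endothelial-like cell of WT2 with 9. No Il5 UMI was found in the 73 mast cell-like cells, which allows up to 7.93 CPM.

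Il13, which drives mucus and alternative macrophage responses, had 3 sources. Group 2 innate lymphoid-like cells held 67.0% of its UMIs in named classes, with 49, 20, 36, 53 and 90 UMIs, or 221, 228, 644, 346 and 263 CPM. KO3 was the highest there, whereas for Il5 it was the lowest. Mast cell-like cells had 2, 19, 16, 1 and 0 UMIs. The third source was 5 cells in the monocyte-like cluster, 1 of KO1, 1 of KO2 and 3 of WT2, which held 36 UMIs. All 5 had Gata2, 3 had Cd200r3, 3 had Fcer1a, which are basophil and mast cell genes, and none had the monocyte genes Ccr2 or Ly6c2. Of the other basophil markers, Mcpt8 was in 2 of the 5 cells, Prss34 in 1 and Ms4a2 in 1. Outside the mast cell-like cluster, 8 cells had UMIs of at least 2 of 6 basophil markers, and all 8 had Il13, with 41 UMIs in all. A single T cell-like cell of KO2 held 24 UMIs of Il13.

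Cells of the innate lymphoid cluster that had Il13 mostly had Il5 and Il1rl1 too, as did most cells of the cluster. Of the 38 with Il13, 33 also had Il5 and all 38 had Il1rl1, where 114 and 145 of all 153 cells had these genes. Seen from the other gene, 28.9% of the 114 cells with Il5 had Il13, against 24.8% of all 153. Of Il13 UMIs, 46.0% were in the 5 cells with the most, against 16.2% for Il5. Il4 was nearly absent from these cells, with 1 UMI in 1 of 153.

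Il4, the cytokine of T helper 2 cells, basophils and mast cells, had too few UMIs for a level in most classes. Mast cell-like cells held 22 of its UMIs, with 0, 11, 9, 1 and 1 per library, in 8 of 73 cells. T cell-like cells held 6 UMIs in 5 of 1067 cells. In the monocyte-like cluster 3 cells held 4 UMIs, all of them among the 5 with Il13. No UMI was found in NK cell-like, B cell-like, macrophage-like or luminal progenitor-like cells.

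**Figure D3:**
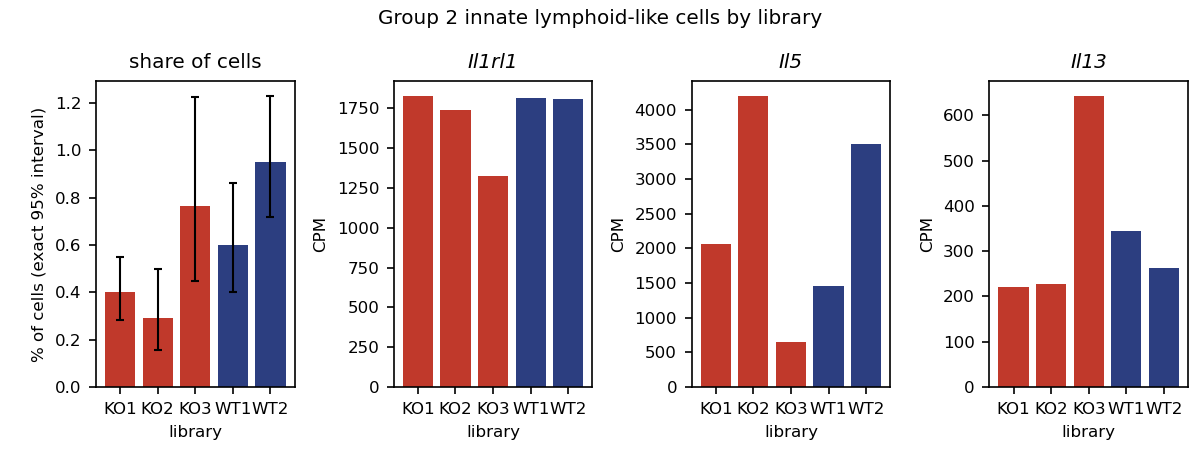
Group 2 innate lymphoid-like cells in each library: their share of all cells used with its exact 95% binomial interval (counting error only), and the CPM of Il1rl1, Il5 and Il13; red bars are knockout-labelled and blue bars wild type. Il1rl1 lies between 1323 and 1830 CPM, while Il5 ranges from 644 to 4202 CPM with both genotypes overlapping.

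Il4ra, the chain shared by the IL-4 and IL-13 receptors, was broad, with the highest means in most leukocyte classes and endothelium. Group 2 innate lymphoid-like cells had 235, 182, 286, 196 and 202 CPM. Endothelial-like cells had 114, 256, 114, 147 and 161 CPM, and T cell-like cells 221, 101, 137, 152 and 109 CPM. Macrophage-like cells had 159, 109, 112, 164 and 115 CPM, and fibroblast-like cells 129, 92.8, 74.7, 114 and 107 CPM. The ranges of these neighbours overlapped. Monocyte-like cells, at 73.4 ± 22.7 CPM (SD, n = 5), had a lower mean than fibroblast-like cells. Epithelium was lower, with 15.3, 17.2, 13.7, 22.2 and 18.2 CPM in the hormone-sensing luminal class. The luminal progenitor class had 19.2, 16.2, 17.0, 19.97 and 17.7 CPM, and basal/myoepithelial-like cells 27.7 to 38.7 CPM. Pericyte/vascular smooth muscle-like cells were as low, at 6.88 to 21.7 CPM. Within fibroblasts the Pi16 cluster had 149 ± 24.7 CPM (SD, n = 5) and the Enpp2 and Mme cluster 47.6 ± 9.12 CPM (SD, n = 4).

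Il13ra1, which joins IL-4Rα in the receptor that binds IL-13, was almost absent from lymphocytes. Neutrophil-like cells had 91.9 (KO1), 70.6 (KO2), 151 (WT1) and 87.9 (WT2) CPM, and pericyte/vascular smooth muscle-like cells 78.4, 108, 38.2, 59.2 and 100.1 CPM. Hormone-sensing luminal-like cells had 44.6, 91.5, 58.8, 43.6 and 102 CPM. KO2 and WT2 were the highest there, as for Il33. Fibroblast-like cells had 54.0, 91.6, 34.9, 48.1 and 106 CPM, again with KO2 and WT2 highest. Luminal progenitor-like cells were lower, at 18.6 to 45.5 CPM. T cell-like cells had 1.80, 1.58, 3.12, 2.45 and 2.18 CPM, and NK cell-like cells at most 3.54 CPM. A UMI was found in 64.0% of hormone-sensing luminal-like cells and 1.31% of T cell-like cells, at median depths of 17034 and 5363 UMIs; after thinning the shares were 14.8% and 0.398%. Group 2 innate lymphoid-like cells had 4 UMIs in 3 of 153 cells.

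Fibroblast clusters differed in Il13ra1 more than in Il4ra. The Mrgprg cluster had 103, 114, 113, 109 and 157 CPM of Il13ra1 and the Pi16 cluster 93.3 ± 29.8 CPM (SD, n = 5). The Gdf10 cluster had 8.8, 11.2, 0, 11.3 and 14.1 CPM, and the Enpp2 and Mme cluster 6.73 ± 4.604 CPM (SD, n = 4). In every library the Mrgprg cluster was higher than the Gdf10 cluster.

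**Figure D4:**
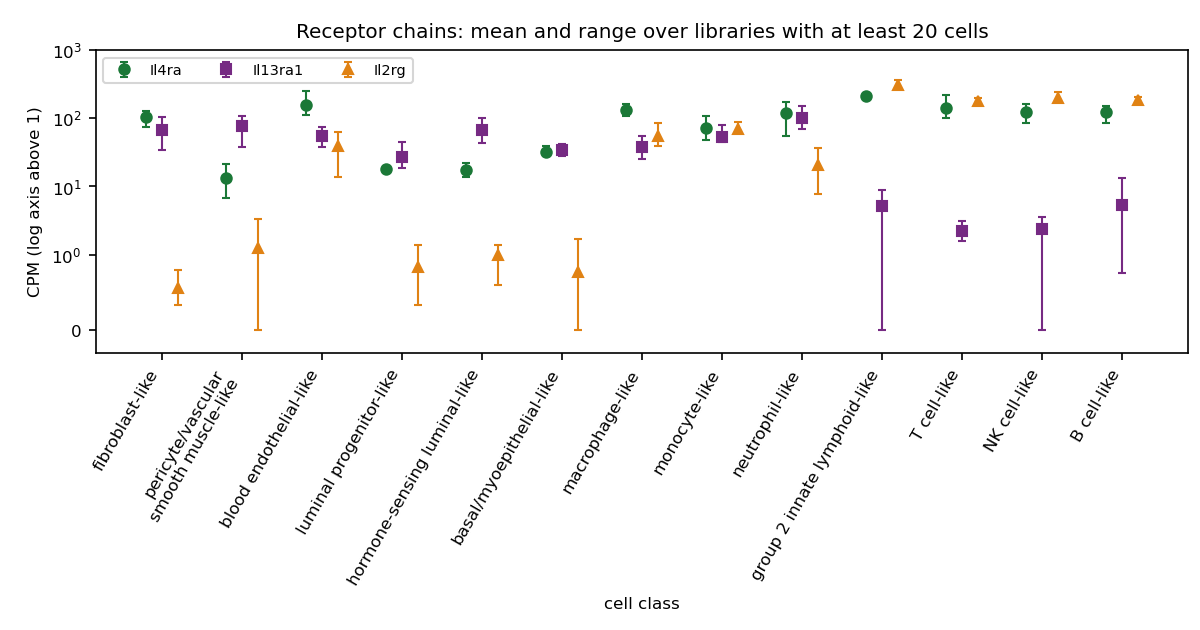
CPM (log axis above 1) of Il4ra, Il13ra1 and Il2rg in 13 cell classes; points are means over libraries with at least 20 cells and bars run from the lowest to the highest library. Il2rg and Il13ra1 are high in different classes: lymphoid classes have Il2rg over 100 and Il13ra1 under 14, and fibroblast-like and epithelial classes the reverse order.

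The partner chains completed this division. Il2rg, the common γ chain, was at 309 ± 46.1 CPM (SD, n = 3) in group 2 innate lymphoid-like cells, here over the libraries with at least 20 of them, KO1, WT1 and WT2, and 180 ± 16.7 CPM (SD, n = 5) in T cell-like cells. It was at 0.557 ± 0.188 CPM in fibroblast-like and 0.996 ± 0.341 CPM in hormone-sensing luminal-like cells (SD, n = 5 for each). Macrophage-like cells had both chains, with Il2rg at 54.5 ± 20.2 CPM and Il13ra1 at 37.4 ± 12.2 CPM (SD, n = 5 for each). Il13ra2, the decoy receptor for IL-13, had 39 UMIs in the 9097 fibroblast-like cells and none in luminal or basal classes. Of the TSLP receptor, Crlf2 was at 191 ± 54.8 CPM (SD, n = 4) in neutrophil-like and 130 ± 27.4 CPM (SD, n = 5) in monocyte-like cells. Its other chain, Il7r, was at 531 ± 179 CPM (SD, n = 3, the same libraries) in group 2 innate lymphoid-like and 0.467 ± 0.376 CPM (SD, n = 5) in fibroblast-like cells. T cell-like cells had 324 ± 225 CPM of Il7r (SD, n = 5), and their range overlapped with that of the innate lymphoid class. Il7r was also among the markers used to name that class. Il1rap, the chain that signals with ST2, was highest in neutrophil-like cells at 327 ± 86.4 CPM (SD, n = 4), and had only 2 UMIs in mast cell-like and 7 in group 2 innate lymphoid-like cells. Fibroblast-like cells had Il1rap at 20.9 ± 2.76 CPM (SD, n = 5).

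Other type 2 effector genes with the most UMIs in group 2 innate lymphoid-like cells were Areg, an epidermal growth factor receptor ligand, Calca, the CGRP gene, and Csf2, the GM-CSF gene. They had 1801, 638 and 485 CPM over all 153 cells. Csf2 and Il5 were found together in 54 of the 61 cells with Csf2, where 114 of all 153 cells had Il5. In fibroblast-like cells the genes with most UMIs from the list of IL-4 and IL-13 response genes were Postn, Ccl11 and Ccl8. Ccl11 encodes eotaxin-1, a chemokine for eosinophils, and was at 358 ± 135 CPM (SD, n = 5). In mast cell-like cells the response gene with most UMIs was Retnla, at 1091 CPM over all 73 cells but 22.9 CPM in KO3; macrophage-like cells held 91.3% of Retnla UMIs in named classes.

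The genes most like each member over 14 classes were found from Pearson's r of log2(CPM + 1), which describes the classes and shares their libraries and depths. Mast cell-like cells, with at least 20 cells in 1 library only, were not among these 14 classes, whereas Schwann/glial-like cells were. For Il5 it was Csf2 (r = 0.976), and for Il13 it was 5830411N06Rik (r = 0.951), followed by Ccl1 and Il5 (r = 0.947 and 0.939). For Il33 they were Hc, Gfpt2 and Htra3 (r = 0.929, 0.926 and 0.879) and for Tslp Enpep, Trim69 and Cxcl1 (r = 0.926, 0.902 and 0.897). Il1rl1 was most like Il5 (r = 0.821), Il4ra most like Sp110 (r = 0.905) and Il13ra1 most like Tctex1d2 (r = 0.908). Il4, with 42 UMIs, was under the 100 UMIs asked for this measure. The r of Il1rl1 and of Il13 with Il5 thus leaves out mast cell-like cells. Those cells had Il1rl1 at 1921 CPM (mean of 5 libraries), 38 UMIs of Il13 and no UMI of Il5.

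Knockout-labelled and wild type libraries were then compared in each class, on UMIs summed per library, by edgeR's quasi-likelihood test across all genes with Benjamini-Hochberg adjustment. Of the 38 pairs of a member and a class, or all cells, that could be fitted, none passed an adjusted p of 0.05, and 1 had an unadjusted p under 0.05. Of the 8 members, 1 to 5 passed the filter on low counts in a class, and all 8 did over all cells. Over all cells 0 of 17327 genes were called (0%), in fibroblast-like cells 0 of 14210 (0%) and in macrophage-like cells 1 of 8895 (0.0112%). At an unadjusted p under 0.05, 1.23% of genes passed over all cells. By class these were 0.633% in fibroblast, 0.589% in luminal progenitor, 0.58% in hormone-sensing luminal, 0.786% in basal, 3.86% in pericyte and 1.2% in endothelial cells. Among leukocytes they were 1.85% in macrophage, 1.49% in monocyte, 2.98% in neutrophil, 3% in T cell, 1.78% in NK cell and 2.07% in B cell classes. The libraries of each genotype did not overlap for 2 of the 38 pairs, against 13.2% of all genes tested in these fits. DESeq2 called 9 genes over all cells and 0 in fibroblast-like cells, and none was a member. In simulated fibroblast sums with known changes, 67% of 4-fold and 3% of 2-fold changes were recovered, and in macrophage sums 79% and 12%. Most 2-fold differences would thus be missed in such sums. The simulation gave all genes of a class the same spread between libraries, so these shares do not apply to single members, whose own spread was not simulated.

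The largest fitted difference among the pairs of the main fits was that of Il1rl1 in T cell-like cells. It was at 26.0, 120, 128, 34.2 and 26.6 CPM, so KO2 and KO3 lay above both wild type libraries and KO1 below them. The log2 difference was 1.53 ± 0.59 (SE), with an unadjusted p of 0.0291 and an adjusted p of 1.0 in edgeR. With no filter on low counts the adjusted p was 0.0468, and over the other settings it ran from 0.245 upward. The Icos and Tnfrsf4 cluster held 10 of 85 T cell-like cells in KO2 and 41 of 360 in KO1, and its 10 cells in KO2 had 60 of the 76 UMIs. A single cell held 47 of these, and without it the level of T cell-like cells in KO2 was 46.8 CPM.

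None of the differences of the alarmins passed the test. Tslp differed by 0.41 ± 0.31 on the log2 scale in fibroblast-like cells and by 0.99 ± 0.60 in macrophage-like cells (SE, edgeR adjusted p = 1.0 for each). Il33 differed by −0.34 ± 0.58 in fibroblast-like and 0.28 ± 1.08 in hormone-sensing luminal-like cells (SE, edgeR adjusted p = 1.0 for each). Without WT2 the fibroblast value of Tslp was 0.04 and without WT1 it was 0.91. The macrophage value was 0.15 without KO3, 0.50 without WT1 and 1.53 without WT2. Without KO3 the fibroblast value of Il33 was 0.06 and without WT2 it was 0.11. Without KO2 the luminal value was −1.31 and without WT1 it was −0.24. Il1rl1 differed by 0.71 ± 0.67 in fibroblast-like cells (SE, edgeR adjusted p = 1.0). It was 0.16 without KO3, 0.10 without WT1 and 1.78 without WT2.

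None of the differences of Il4ra and Il13ra1 passed the test either. Il4ra differed by −0.18 ± 0.25 in fibroblast-like cells and Il13ra1 by −0.38 ± 0.53 (log2, SE, edgeR adjusted p = 1.0 for each). In hormone-sensing luminal-like cells Il4ra was lower in all 3 knockout-labelled libraries than in both wild type ones, at 13.7 to 17.2 against 18.2 to 22.2 CPM. That holds for 4.70% of genes in the class, and the log2 difference of −0.41 ± 0.23 had an edgeR adjusted p of 1.0. Over all cells Il4 was the only member with separate ranges, at 0.131, 0.203 and 0.408 against 0.0393 and 0.128 CPM. It rests on 42 UMIs, and 3.86% of genes were higher in every knockout-labelled library in the same way.

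The scarce classes were fitted with at least 5 cells per library, a limit chosen after seeing the data. In group 2 innate lymphoid-like cells, Il5 differed by −0.14 ± 0.78, Il13 by 0.21 ± 0.51 and Il1rl1 by −0.16 ± 0.29 (log2, SE, edgeR adjusted p = 0.999 for each). Of 2146 genes tested there, 0% were called and 1.40% had an unadjusted p under 0.05. In mast cell-like cells, Il13 had 37 UMIs in 15 of 53 knockout-labelled cells and 1 UMI in 1 of 20 wild type cells. Of the 38 UMIs, 14 were in 1 cell of KO2 and 65.8% in 5 cells. Without that cell the level of KO2 was 72.7 in place of 257 CPM. The ratio of pooled levels was 18.5, with an exact counting interval of 3.11 to 748 that leaves out the spread between libraries. The fitted log2 difference of 3.96 ± 1.45 (SE) had an unadjusted p of 0.0183 and an adjusted p of 1.0 in edgeR, where 3.28% of 1614 genes had an unadjusted p under 0.05. KO1 had 2 UMIs and overlapped with wild type; without KO1 the adjusted p was 0.0219. For Il4 the same cells had 20 against 2 UMIs, and it did not pass the filter on low counts.

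**Figure D5:**
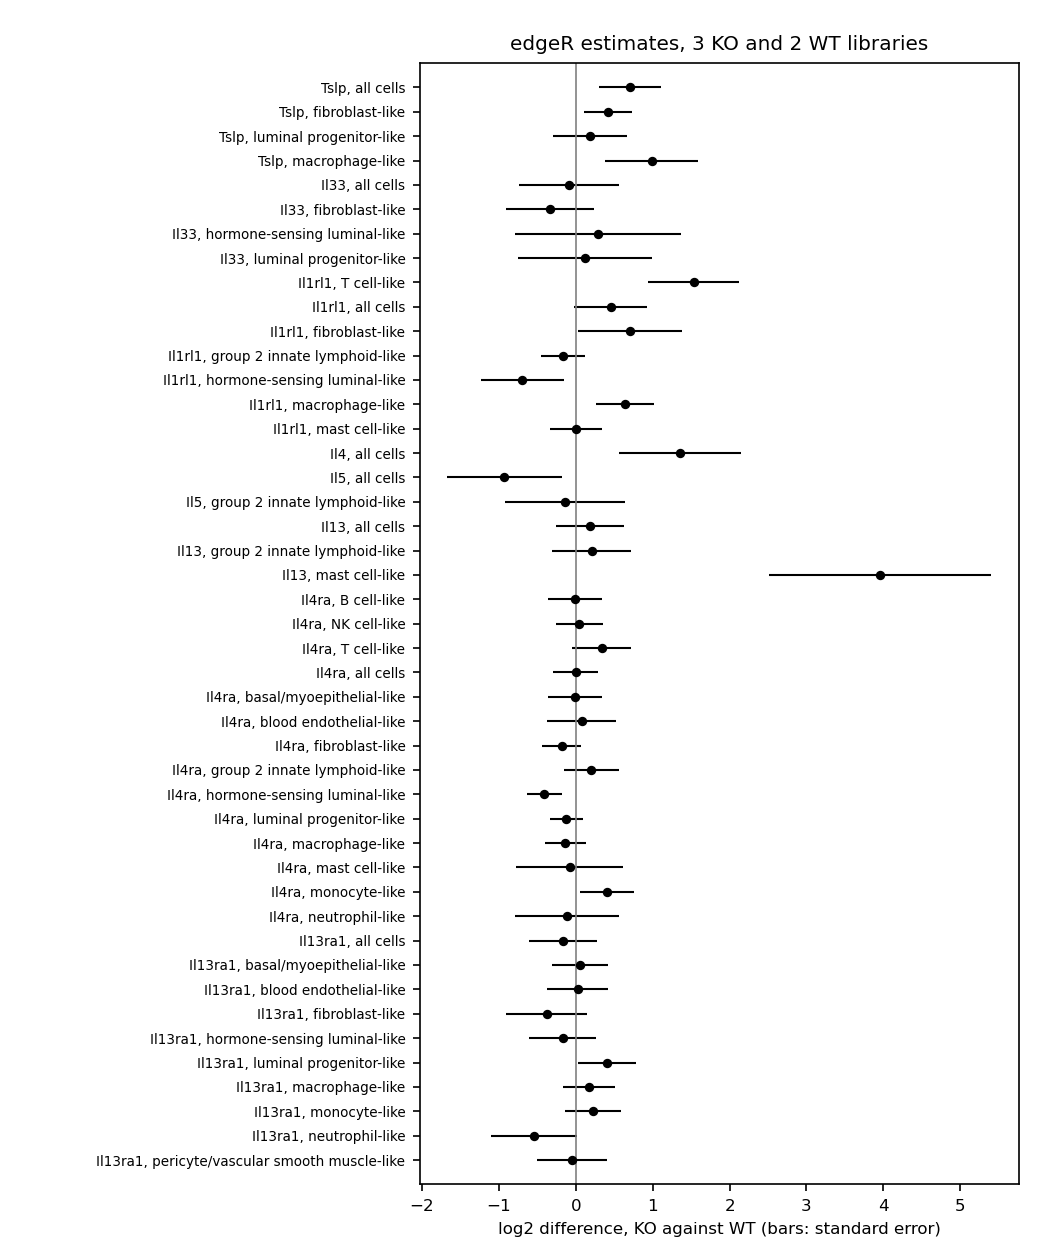
Fitted log2 difference, knockout-labelled against wild type, for each member and class that could be fitted (points) with its standard error (bars). Most estimates lie within 1 of zero, none passed an adjusted p of 0.05, and the farthest, Il13 in mast cell-like cells at 3.96, rests on 38 UMIs.

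Of the other genes of the pathway, none passed an adjusted p of 0.05 in edgeR in any of the fits, in either direction. That was 0 of 72 tests over 10 receptor chains, 0 of 170 over 15 signal transduction genes and 0 of 76 over 8 transcription factors. It was also 0 of 36 tests over 10 other effector genes and 0 of 98 over 16 response genes. At an unadjusted p under 0.05 the counts were 2, 4, 5, 1 and 6, or 2.78%, 2.35%, 6.58%, 2.78% and 6.12% of these tests. Over all genes and fits the share was 1.45%. Of the 6 tests of response genes, 3 were in pericyte/vascular smooth muscle-like cells, those of Tgm2, Postn and Ccl11, where 3.86% of all genes had such a p. Chil3 was counted both over all cells (log2 −3.42, edgeR unadjusted p = 0.000517) and in monocyte-like cells (log2 −2.04, edgeR unadjusted p = 0.000422). Those fits share cells. The last was Pdcd1lg2 in B cell-like cells. These genes were named after their values were seen.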

How the data were processed

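Raw UMI counts per gene and barcode were deposited by the authors, and the file headers name Cell Ranger 6.0.2, or 6.1.2 in KO3. The build was mm10, per the submitters' processing notes; aligner settings and annotation were not stated. Gene positions are from GENCODE mouse release 21 by gene ID. Cells were filtered, doublets removed by simulation within each library (0.8% per 1000 barcodes), and 2000 variable genes, 30 principal components and 20 neighbours were clustered (Leiden, resolution 1, leidenalg 0.10.2); lymphoid cells were clustered again. Naming thresholds, and leaving a cluster unnamed where Epcam, Col1a1 and C1qa each had UMIs in over 50% of cells, were set after seeing the data. Sums per library and class (at least 20 cells) were fitted with edgeR 4.0.16 (TMM, filterByExpr) in R 4.3.3, with DESeq2 1.42.0 as an alternative, and tested on simulated data. The members and gene lists were chosen with earlier results of these data known. Genes named are the members, up to 3 genes per list with most UMIs in a class that holds most UMIs of a member, and the 3 most alike genes; other genes mark clusters or partner chains and were chosen after their values were seen. Each library was treated as 1 replicate, so p-values measure the spread between libraries. The sample titles number replicates and do not say whether each is 1 mouse. Libraries shared few barcodes, 1 to 20 per pair. Intervals and floors (3 counts) cover counting error only.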

Additional observations from a re-analysis of the deposited data

Results flagged for a closer look

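Each member also had UMIs in barcodes that were left out of the cells used, because they failed the filter on genes or mitochondrial UMIs or were removed as doublets (the latter enter only the alternative that keeps doublets). These barcodes held 132 UMIs of Tslp, 1859 of Il33, 618 of Il1rl1, 7 of Il4, 266 of Il5, 38 of Il13, 2029 of Il4ra and 1769 of Il13ra1. The counts are above the 3 that a count of 0 allows; their source was not tested.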

How the results depend on the processing

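The mean levels checked, of Tslp in macrophage, Il33 and Il4ra in fibroblast, Il13ra1 in hormone-sensing luminal, Il4 in mast cell and Il1rl1, Il5 and Il13 in innate lymphoid classes, moved by less than 1 SD with a stricter cell filter, doublets kept, finer clusters or 1 library left out. Thinning each cell to 2000 UMIs lowered the share of cells with a UMI to 4.08% for Tslp in macrophage-like cells, 15.5% for Il33 and 17.7% for Il4ra in fibroblast-like cells. It became 64.9% for Il5 and 16.9% for Il13 in group 2 innate lymphoid-like cells, and 14.8% for Il13ra1 in hormone-sensing luminal-like cells. Over all settings 2 member calls were made: Il1rl1 in T cell-like cells with no low-count filter (log2 1.48, adjusted p = 0.0468, 1 member called) and Il13 in mast cell-like cells without KO1. All genes called by DESeq2 were 9 over all cells, 1 in hormone-sensing luminal, 1 in basal, 6 in pericyte, 1 in endothelial, 4 in macrophage, 1 in neutrophil and 3 in B cell classes. With no low-count filter they were 6 in basal, 51 in pericyte, 2 in endothelial, 22 in macrophage, 11 in monocyte, 26 in neutrophil, 27 in T cell and 20 in B cell classes. A stricter cell filter gave 2 in macrophage-like cells and keeping doublets 3 in B cell-like cells. The labels do not say that replicate numbers pair mice. Deviations from the genotype mean correlated at 0.0746 to 0.718 over 5 classes for same-numbered libraries and at −0.718 to 0.421 for the others. With 2 wild type libraries the deviations of WT1 and WT2 are exact opposites, so this measure cannot decide on pairing. With the replicate block, genes called were 180 in luminal progenitor, 47 in hormone-sensing luminal, 11 in basal, 1 in endothelial, 5 in macrophage, 22 in monocyte, 21 in neutrophil, 5 in NK cell and 7 in B cell classes, no member among them; Il33 in fibroblast-like cells changed sign to 0.10. With 1 library left out, the counts ran from 0 to 8 in basal, 0 to 12 in pericyte, 0 to 7 in macrophage, 0 to 4 in monocyte, 1 to 58 in neutrophil, 0 to 1 in T cell, 0 to 2 in NK cell, 7 to 88 in B cell, 0 to 4 in group 2 innate lymphoid and 0 to 12 in mast cell classes, with 0 to 1 member in the last. Log2 differences that changed sign ran from −0.68 to 0.11 (Il33, fibroblast), −1.31 to 1.13 (Il33, hormone-sensing luminal), −0.91 to 0.66 (Il5) and −0.49 to 0.53 (Il13, both innate lymphoid), −0.14 to 0.59 (Il4ra, T cell), −0.88 to 0.38 (Il13ra1, fibroblast) and −0.64 to 0.53 (Il13ra1, hormone-sensing luminal). Without a sign change, Il13 in mast cells ran from 2.33 to 6.75, Il1rl1 from 0.10 to 1.78 in fibroblast and 1.15 to 2.04 in T cell classes, and Tslp from 0.04 to 0.91 in fibroblast and 0.15 to 1.53 in macrophage classes. For Il5 in innate lymphoid-like cells the sign change came without KO3 (0.27) and without WT2 (0.66). The share of innate lymphoid-like cells differed by −0.463 to −0.113 points with 1 library left out, by −0.374 with the stricter filter (exact p = 0.1), by −0.218 over named classes (exact p = 0.5, added after seeing the data) and by −0.0114 with a marker gate of 54 cells (exact p = 1). Of the 54 gated cells, 36 were among the 153 of the cluster, so the gate described a partly different set of cells. The causes were not tested. Depth limits Il4, with 42 UMIs, and the classes with few cells most.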
